A study of Mus musculus with 6 samples.

Results

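The TCA cycle genes described here are 30 mouse genes for the enzymes of the cycle, the cytosolic counterparts of some of them, the pyruvate dehydrogenase complex, the mitochondrial pyruvate carrier and the malic enzymes. They were taken by gene symbol from a table of 24885 rows of raw read counts, in which all 30 were found. The study's title names tumour metabolism, and its comparison asks which transcripts differ after loss of the miR-17~92 microRNA cluster. The cells are described as lymphoma cells that carry Eµ-Myc, a Myc transgene under an enhancer active in the B lineage, together with Cre-ERT2, a recombinase that 4-hydroxytamoxifen (4-OHT) switches on, and 2 floxed copies of the cluster. In the control group (genotype floxed, called fl, 3 libraries) the cluster was intact. In the other (genotype del17-92, called del, 3 libraries) it had been deleted with 250 nM 4-OHT over 4 days, after which deficient cells were subcloned. Both groups were grown on irradiated Ink4a-null fibroblasts for 48 hours before RNA was taken. Only the del cells had been treated and subcloned, so deletion, treatment and subcloning cannot be told apart. Nothing in the labels tells if the 3 libraries of each group stem from different cultures or clones. The p-values therefore cover the spread of these samples, and that spread may be technical.

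Depth went with group: fl totals ran from 6554423 to 9580630 counts, and del totals from 2121796 to 3738720. Levels are given in CPM, the count divided by the scaled library total. The libraries were primed at the poly(A) tail, so a level was not divided by length and is compared within a gene only. Mir17hg, from which the cluster is processed, was at 252, 262 and 262 CPM in fl and 167, 151 and 206 CPM in del. Its annotated 3' end lies past the cluster, so these reads do not check the deletion. Markers of cell types differed between the groups, and the fl libraries went against their label: 14 B cell markers summed to 52.0 to 60.2 CPM in fl and to 1319 to 1505 CPM in del. Among them, Cd79b was at 2.12 ± 0.465 CPM and Ebf1 at 0.263 ± 0.281 CPM in fl (SD, n = 3), and at 171 ± 13.4 and 113 ± 27.9 CPM in del. Igll1 was at 0 in fl and had 1, 1 and 3 counts in del, and Ms4a1 had 2 counts in fl and 1 in del. All 11 B cell markers tested were higher in del, where 32.5% of all genes tested were. Some of them, such as Ebf1, reached the minimum level for testing (1.94 CPM) through del alone. The filter thus set their direction, which is not read from the test. By these transcripts the fl libraries hold little of the labelled cell type. The 10 myeloid markers summed to 409 to 455 CPM in fl and 2938 to 3756 CPM in del (6 of 8 tested higher, 2 lower, Mpo at 0 in both). Most of the fl sum was Fcer1g, at a mean of 390 CPM in fl and 598 CPM in del. Lyz2 was at a mean of 0.371 CPM in fl and 453 CPM in del. In del the myeloid sum was above the B cell sum. The 5 epithelial markers summed to 370.4 to 410.0 CPM in fl and 0.473 to 1.32 CPM in del (3 of 3 tested lower, Cdh1 at 0 in both). Epcam and Krt18 made up nearly all of the fl sum, at means of 170 and 214 CPM. In fl, Krt8 was at a mean of 4.23 CPM and Krt19 at 0.0372 CPM. The 12 markers of fibroblasts, the feeder cell type, summed to 2.06 to 8.20 CPM in fl and 13.7 to 33.1 CPM in del (2 of 3 tested higher), with Lum at 0 in both and Col3a1 at 1 count in each group. The 10 T and NK cell markers summed to 4.01 to 5.86 CPM in fl and 0.473 to 1.58 CPM in del, with Cd3e, Cd8a, Cd8b1, Nkg7 and Ncr1 at 0 in both and Lck, the 1 gene tested, lower. Lck, the 3 epithelial markers tested and some myeloid and fibroblast markers also reached the minimum level through 1 group alone. Their direction is likewise not read from the test. The part of these marker differences in the results below was not tested.

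Pyruvate from glycolysis enters mitochondria through a carrier and is turned into acetyl-CoA by the pyruvate dehydrogenase complex. The TCA cycle joins acetyl-CoA to oxaloacetate, oxidises the resulting citrate stepwise, and passes the electrons to NADH, NADPH or the respiratory chain. In dividing cells it also supplies citrate, aspartate and other building blocks, and malic enzymes lead malate back to pyruvate.

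Most of these transcripts were lower in del, by a median of 0.62 on the log2 scale, and Idh2, Mpc1, Pdhb and Pdha1 were furthest down. Of 28 genes tested 24 fell and 1 rose, while 3 did not pass the test (edgeR's quasi-likelihood test, Benjamini-Hochberg adjustment over all genes tested, threshold 0.05). Over all 10260 genes tested 65.1% passed, 32.6% lower and 32.5% higher in del, and the median log2 fold change was -0.00 against -0.62 for the 28. Every del library lay below every fl library for 25 of the 28 and above for 1, against 35.7% and 34.2% of all genes. Of the 30 genes, Me3 had no count and Me1 a few, and neither was tested. The minimum count was met in all 6 libraries by 27 of the 28, Pcx being the exception. In sum the 30 genes were at 4050, 4080 and 4075 CPM in fl and at 2577, 2446 and 2421 CPM in del. In bulk RNA, fewer cells of a type and less RNA per cell cannot be told apart. The sources used here do not state how reads shared with a near-identical gene copy were counted.

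**Figure D1:**
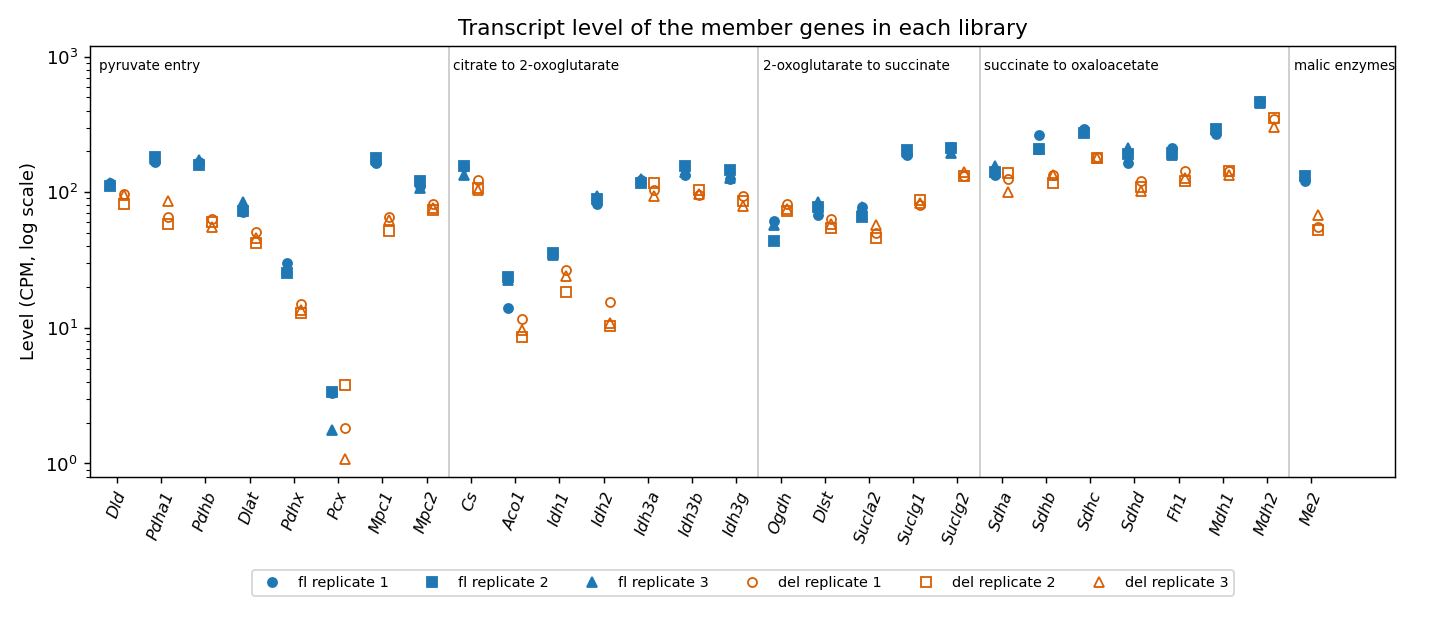
Level of each gene in every library (y axis, CPM on a log scale), with filled blue symbols for the 3 fl libraries, open orange symbols for the 3 del libraries and genes ordered by step. Del symbols lie below fl symbols for 25 of the 28 genes drawn and above them for Ogdh. Me1 and Me3, at or near 0, are not drawn.

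Pyruvate entry was lower throughout its carrier and dehydrogenase. Of the 8 genes of this step 7 fell, none rose and Pcx did not pass, and their summed level went from 848 ± 13.9 CPM to 421 ± 31.7 CPM (SD, n = 3). Mpc1 (chr17:8283787-8297667, GRCm38), a subunit of the mitochondrial pyruvate carrier, was at 165.5, 179 and 172 CPM in fl and at 65.7, 51.55 and 62.6 CPM in del. No library of the groups overlapped, and the log2 fold change was -1.52 ± 0.14 (SE, adjusted p = 2.18e-05). Mpc2, the partner subunit, was at 111, 121 and 108 CPM in fl and 82.3, 73.8 and 76.1 CPM in del (a change of -0.55 ± 0.13 on the log2 scale, adjusted p = 0.00433). With offsets for transcript length and GC content, described below, the values were closer, -0.94 for Mpc1 and -0.74 for Mpc2. The offsets took the longest annotated transcripts, of 961 nucleotides for Mpc1 and 4015 for Mpc2. Whether these are the expressed ones was not tested.

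The pyruvate dehydrogenase complex is built of an E1 enzyme (Pdha1 and Pdhb), an E2 acetyltransferase core (Dlat), an E3 dehydrogenase (Dld) and the protein that binds E3 to the core (Pdhx). All 5 genes fell. Pdhb (chr14:8165991-8173303) was at 166, 158 and 173 CPM in fl and at 63.9, 60.5 and 55.6 CPM in del, without overlap (-1.46 ± 0.13 on the log2 scale, adjusted p = 1.68e-05). Pdha1, the other E1 subunit, stood at 168, 181 and 175 CPM in fl and 66.0, 58.2 and 85.5 CPM in del, with del replicate 3 the highest of its group (-1.31 ± 0.16, adjusted p = 0.000112). The other 3 genes of the complex fell less. Pdhx went from 30.3, 25.4 and 27.4 CPM to 14.99, 12.8 and 13.5 CPM (-0.998 ± 0.15). Dlat went from 71.7, 73.2 and 84.5 CPM to 50.7, 42.6 and 46.1 CPM (-0.71 ± 0.14). Dld, which also serves the 2-oxoglutarate and branched-chain dehydrogenases, changed least of the 5, from 117, 112 and 117 CPM to 97.3, 81.8 and 95.8 CPM (-0.33 ± 0.13, adjusted p = 0.0492), and its call was lost in 11 of 16 alternative analyses. Pcx, the carboxylase that makes oxaloacetate from pyruvate, was scarce: 3.32, 3.35 and 1.76 CPM in fl and 1.84, 3.78 and 1.08 CPM in del, with 4 to 30 counts a library. The groups overlapped, and the 95% interval of its log2 fold change ran from -1.54 to 0.52 (adjusted p = 0.348).

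From citrate to 2-oxoglutarate, Idh2 stood apart from its relatives. Of 7 genes 6 fell, none rose, and every del library was below every fl library for all 7. Idh2 (chr7:80094845-80118608), the mitochondrial NADP-dependent isocitrate dehydrogenase, was at 82.4, 89.3 and 93.8 CPM in fl and at 15.5, 10.4 and 10.8 CPM in del. Its log2 fold change was -2.83 ± 0.18 (adjusted p = 2.21e-06), lower than that of all but 3.03% of genes tested. Idh1, the cytosolic enzyme of the same reaction, was at 35.7, 35.5 and 34.55 CPM in fl and 26.8, 18.4 and 24.3 CPM in del (-0.58 ± 0.16, adjusted p = 0.00879). The NAD-dependent enzyme of the cycle is made of 3 subunits. Its catalytic subunit Idh3a was at 124, 117 and 124 CPM in fl and 104, 116 and 93.9 CPM in del, and did not pass the test (95% interval of the log2 fold change -0.52 to 0.09, adjusted p = 0.182). Idh3b (-0.55 ± 0.13, adjusted p = 0.00443) and Idh3g (-0.61 ± 0.14, adjusted p = 0.00356), its regulatory subunits, fell; these calls and that of Idh1 were lost with the length and GC offsets. Cs, the citrate synthase that opens the cycle, was at 155, 157 and 135 CPM in fl and 124, 108 and 103 CPM in del (-0.41 ± 0.14, adjusted p = 0.026), a call lost in 7 of 16 alternatives. Aco1, the cytosolic aconitase that binds iron-responsive elements when it lacks its cluster, was at 14.0, 23.6 and 22.5 CPM in fl and 11.6, 8.51 and 9.71 CPM in del (-0.98 ± 0.25, adjusted p = 0.00607), with fl replicate 1 the lowest of its group.

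Between 2-oxoglutarate and succinate the genes moved in both directions. Ogdh (chr11:6291597-6359094), the E1 enzyme of the 2-oxoglutarate dehydrogenase complex, was at 61.0, 43.7 and 57.1 CPM in fl and at 82.3, 72.4 and 75.6 CPM in del. All del libraries lay above all fl libraries, and it was the 1 gene that rose (0.51 ± 0.16, adjusted p = 0.017). Leaving out fl replicate 2 (0.38, adjusted p = 0.0623) or del replicate 1 (0.45, adjusted p = 0.06) ended the call. Dlst, the E2 subunit of the same complex, fell, from 68.0, 78.2 and 85.3 CPM to 63.1, 54.9 and 58.3 CPM (-0.39 ± 0.14, adjusted p = 0.034), a call lost in 8 of 16 alternatives. Succinyl-CoA ligase, which makes a nucleoside triphosphate, shares the subunit Suclg1 between 2 forms. Suclg1 was at 188, 205 and 197 CPM in fl and 80.7, 88.0 and 83.1 CPM in del (-1.23 ± 0.13, adjusted p = 3.64e-05). The partner subunits fell less: Suclg2 of the GTP-forming enzyme by -0.62 ± 0.13 and Sucla2 of the ATP-forming enzyme by -0.52 ± 0.14 (adjusted p = 0.00209 and 0.0103).

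Of the 7 genes between succinate and oxaloacetate 6 fell and Sdha did not pass. With the length and GC offsets the calls of Sdhb, Sdhd and Mdh2 were lost too, and Sdhb (-0.13) stood close to Sdha (-0.10). Succinate dehydrogenase, also complex II of the respiratory chain, has a flavoprotein (Sdha), an iron-sulphur protein (Sdhb) and 2 membrane anchors (Sdhc and Sdhd). Sdha was at 133, 142 and 157 CPM in fl and 125, 139.5 and 101 CPM in del. The groups overlapped, and the 95% interval of the log2 fold change ran from -0.60 to 0.11 (adjusted p = 0.193). Sdhb was at 265, 209 and 209 CPM in fl and 134, 117 and 134 CPM in del (-0.82 ± 0.15, adjusted p = 0.00102). Sdhc fell by -0.65 ± 0.13 and Sdhd by -0.76 ± 0.15 (adjusted p = 0.00139 and 0.00133), both without overlap. Fh1, the fumarase, was at 212, 193 and 187 CPM in fl and 143, 120.1 and 128 CPM in del (-0.60 ± 0.13, adjusted p = 0.00346). Mdh1, the cytosolic malate dehydrogenase of the malate-aspartate shuttle, was at 270.4, 295 and 286 CPM in fl and 144, 145 and 135 CPM in del (-1.01 ± 0.13, adjusted p = 0.000124). Mdh2, the mitochondrial enzyme, was at 475, 461 and 459 CPM in fl and 348, 354 and 302 CPM in del (-0.48 ± 0.13, adjusted p = 0.0112).

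Of the malic enzymes, only Me2 was measured at a level that could be tested. Me2, the mitochondrial NAD-dependent enzyme, was at 121, 131 and 132 CPM in fl and at 55.7, 52.5 and 68.3 CPM in del (-1.12 ± 0.15, adjusted p = 0.000143), with no overlap. Me1, the cytosolic NADP-dependent enzyme, had 2, 0 and 1 counts in fl and 0, 0 and 2 in del. Me3 had 0 counts among 25030191 in fl and 9452712 in del. By 3 counts of the total, this allows an fl level of up to 0.12 CPM and a del level of up to 0.317 CPM, for counting error only.

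**Figure D2:**
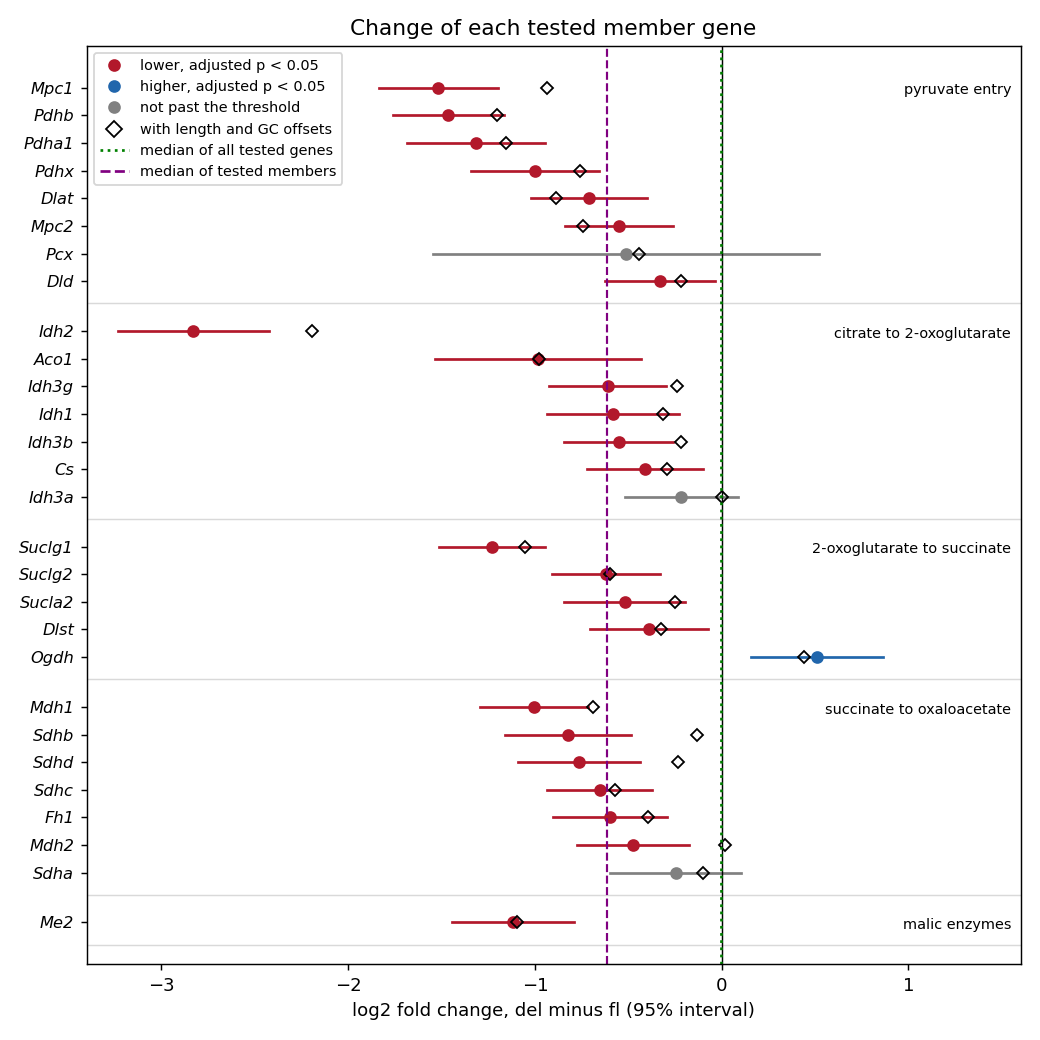
Log2 fold change of each tested gene (x axis, del minus fl; filled circle with its 95% interval), grouped by step and coloured by call. Open diamonds give the same value with offsets for transcript length and GC content. Idh2 is furthest to the left at -2.83, Ogdh is the 1 gene to the right at 0.51, and the diamonds of Sdhb, Sdhd and Mdh2 lie far closer to 0 than their circles.

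Ratios between related genes within a library do not depend on how libraries are scaled, but they do move with the genes' transcript lengths. The same differences were therefore also taken from the fit with length and GC offsets, an alternative chosen after the data were seen, in which 8 of 14 pairs moved by 1 SD or more. In a comparison of 15 pairs, 9 did not overlap between the groups, where 35.7% of single genes lay lower and 34.2% higher in all del libraries, so the count is not read as a result. Each of these had an exact two-sided permutation p of 0.1, the smallest that 3 against 3 libraries allow, and an adjusted p of 0.167 over the 15 pairs, so that no pair could pass 0.05. The ratio of Idh2 to Idh1 counts was 2.31, 2.51 and 2.71 in fl and 0.58, 0.57 and 0.448 in del, a log2 difference of -2.24 (-1.88 with the offsets). Since counts are not divided by length, the change of a ratio is read here and not its level. Against Idh3a, Idh2 stood at 0.665, 0.765 and 0.755 in fl and 0.15, 0.0913 and 0.116 in del (log2 difference -2.64, and -2.19 with the offsets). For the carrier, Mpc2 over Mpc1 was 0.67, 0.676 and 0.627 in fl and 1.25, 1.43 and 1.22 in del (log2 difference 0.98), but the difference was 0.20 with the offsets. Dlst over Ogdh went from 1.11, 1.79 and 1.49 to 0.767, 0.759 and 0.772 (-0.91, and -0.77 with the offsets). Mdh2 over Mdh1 rose from 1.76, 1.56 and 1.6 to 2.41, 2.44 and 2.23 (0.53, and 0.71 with the offsets). Sdhb over Sdha (-0.57), Idh3g over Idh3a (-0.39), Idh3b over Idh3a (-0.33) and Pdhx over Dlat (-0.28) were lower in del without overlap. With the offsets these differences were -0.03, -0.24, -0.22 and 0.12, so that of Pdhx over Dlat changed sign and that of Sdhb over Sdha was near 0. Without them the groups of Sdhb over Sdha all but touched, at 1.33 in fl replicate 3 and 1.32 in del replicate 3.

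The other 6 pairs overlapped. Pdhb over Pdha1 was 0.991, 0.872 and 0.985 in fl and 0.968, 1.04 and 0.65 in del, a log2 difference of -0.13 (exact permutation p = 0.8), and the lowest value came from del replicate 3. For Sucla2 over Suclg2 the log2 difference was 0.09 (exact permutation p = 0.6), and for Sdhd over Sdhc it was -0.11 (exact permutation p = 0.5); with the offsets these were 0.35 and 0.34. The pairs with Pcx or Me1 rested on few counts of these genes, and no direction is read from them. A p above the threshold in this design does not show that the ratios were alike.

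**Figure D3:**
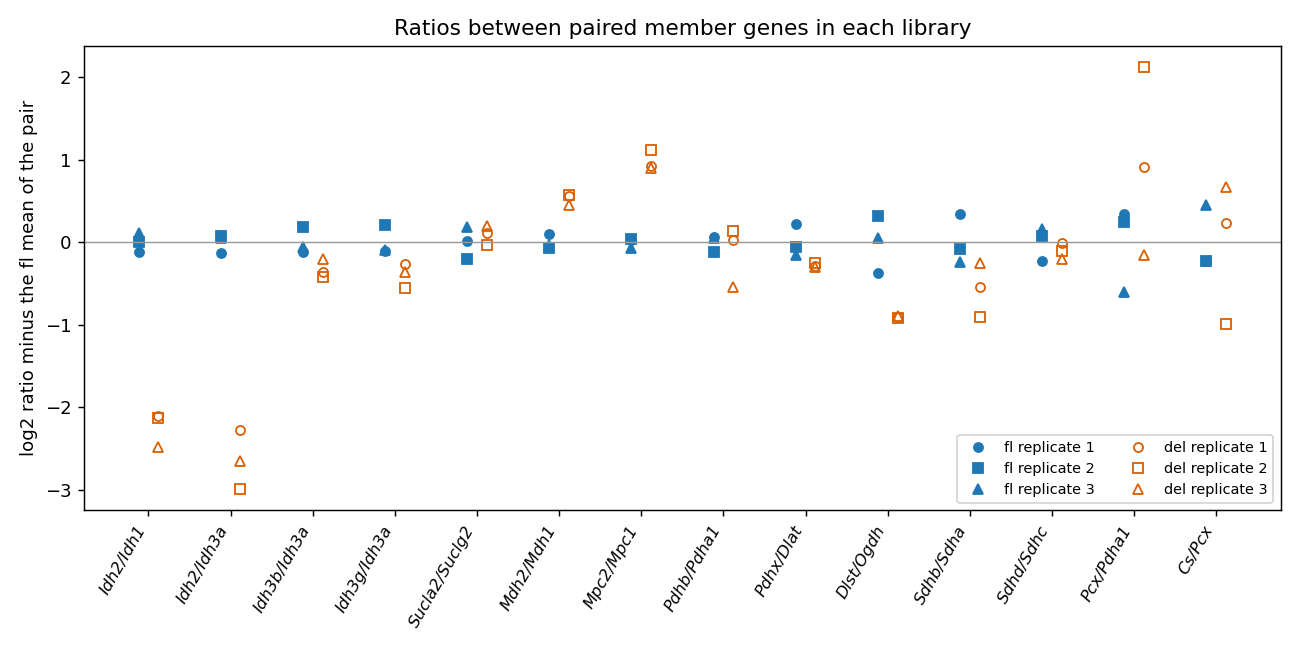
Log2 ratio of the counts of 2 genes within each library (y axis), set to 0 at the mean of the 3 fl libraries (filled blue); del libraries are open orange symbols. Both Idh2 pairs lie more than 2 below 0 in del, Mpc2/Mpc1 lies near 1 above it without length and GC offsets, and the pair with Me1, which had 0 to 2 counts a library, is not drawn.

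Transcript length went with the fold change over all genes, and the pathway's shorter transcripts have to be read beside it. The longest annotated transcript had a median of 2608 nucleotides for the 28 genes and 3399 for all tested genes with a length. All tested genes with a length were put in 10 bins of 1001 genes by length. In the bin of the shortest transcripts, 64 to 1440 nucleotides, the median change was -0.80 on the log2 scale, against 1.01 in the bin of the longest. Set against the median of their own bin, a comparison chosen after the data were seen, 25 of the 28 genes were lower, with a median difference of -0.44. Sdhb (1232 nucleotides) and Sdhd (1231 nucleotides) differed from the median of that shortest bin by -0.03 and 0.03, and Mdh2 (1606 nucleotides) from that of the next bin by 0.03. From the medians of their own bins Idh2 differed by -2.33, Pdhb by -1.15, Pdha1 by -1.10, Suclg1 by -1.02, Aco1 by -1.01, Me2 by -0.99 and Mpc1 by -0.72. The part of length in the individual calls was not tested beyond the offsets that follow. Bins and offsets both rest on the longest annotated transcript, and whether it is the expressed one was not tested.

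With offsets for length and GC content in each library, 14 of the 28 genes were called lower, where 27.8% of all genes were, and all 14 were among the 24. They were Mpc1, Mpc2, Pdha1, Pdhb, Dlat, Pdhx, Aco1, Idh2, Suclg1, Suclg2, Sdhc, Fh1, Mdh1 and Me2, and the same 14 were lower past the threshold in each of the 16 alternatives. The calls of Cs, Idh1, Idh3b, Idh3g, Dlst, Dld, Sucla2, Sdhb, Sdhd and Mdh2 were lost with these offsets. Among them Sdhb went from -0.82 to -0.13 (adjusted p = 0.474) and Sdhd from -0.76 to -0.23 (adjusted p = 0.194), while Mdh2 stood at 0.02 (adjusted p = 0.912). Ogdh kept its rise (0.44, adjusted p = 0.0358). Of the pyruvate carrier and the 5 dehydrogenase genes, only Dld was no longer called.

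**Figure D4:**
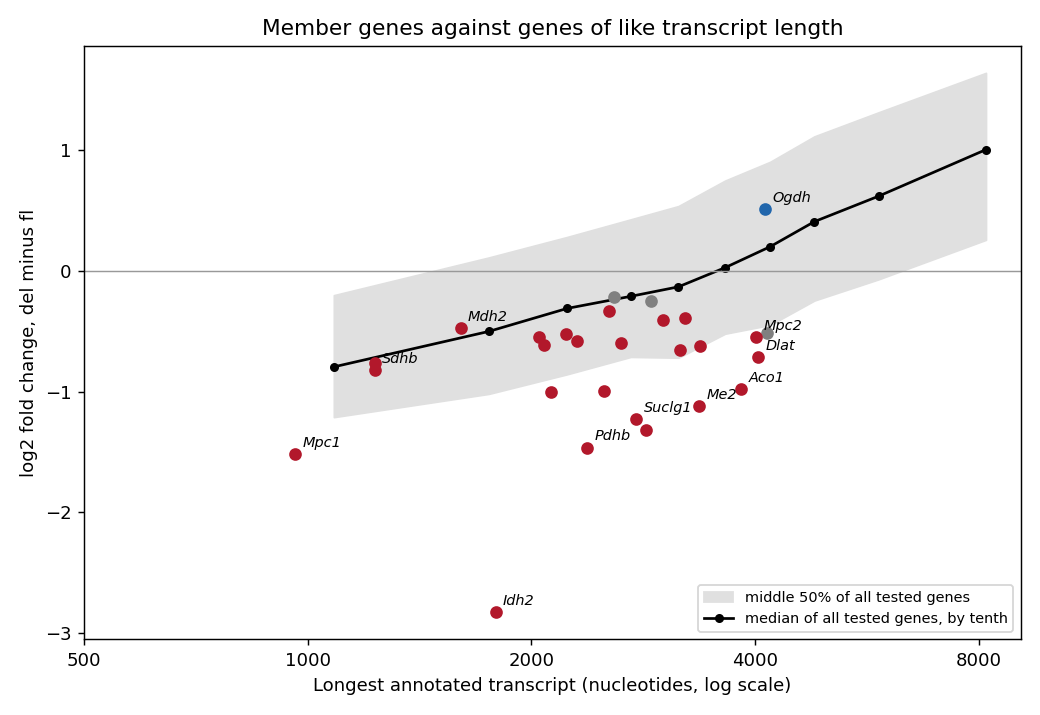
Log2 fold change (y axis, del minus fl) against the longest annotated transcript (x axis, nucleotides on a log scale). The black line and grey band are the median and middle 50% of all tested genes in 10 bins of length, and points are the 28 genes (red lower, blue higher, grey not past the threshold). Idh2, Pdhb and Mpc1 lie below the band, while Sdhb and Mdh2 lie on or near the line.

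Other genes that regulate, equip or feed the cycle moved in both directions. Of 34 such genes in the list 29 were tested, of which 14 fell, 2 rose and 13 did not pass, against 32.6% lower and 32.5% higher among all genes. Of the 2, Acss1 reached the minimum level for testing through del alone, so the filter set its direction. The median log2 fold change of the 29 was -0.37. With the length and GC offsets 13 were called lower and 4 higher. Among regulators of pyruvate dehydrogenase, 1 of 5 fell and 1 rose. Pdk1, a kinase that inhibits the complex, was at 92.3, 106.5 and 105 CPM in fl and 28.1, 39.7 and 29.95 CPM in del (-1.65 ± 0.16, adjusted p = 2.93e-05). Pdpr, the regulatory subunit of the activating phosphatase, was named after its values were seen: it rose from 11.5, 9.94 and 11.3 CPM to 27.6, 35.9 and 21.3 CPM (1.35 ± 0.20, adjusted p = 0.000283). The kinase gene Pdk3 (-0.37 ± 0.16, adjusted p = 0.07) and the phosphatase gene Pdp2 (0.36 ± 0.20, adjusted p = 0.136) did not pass.

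The dehydrogenase complexes need lipoate on their E2 subunits, and 3 of 5 genes of its making and attachment fell, of which Nfu1 kept its call with the length and GC offsets. Nfu1, an iron-sulphur carrier for lipoate synthase, fell by -0.94 ± 0.12 (adjusted p = 0.00015) and Gcsh, the lipoate-bearing protein of glycine cleavage, by -0.75 ± 0.13 (adjusted p = 0.000754; -0.28 and 0.0927 with the offsets). Lipt1 passed at adjusted p = 0.0437 (-0.68 ± 0.26), a call lost in 9 of 16 alternatives, with the offsets among them (-0.23, adjusted p = 0.524). Lias, the lipoate synthase itself, was at 128, 103 and 84.8 CPM in fl and 91.0, 118 and 69.3 CPM in del, with overlap (adjusted p = 0.462). Of 4 assembly factors of succinate dehydrogenase, Sdhaf1 (-1.42 ± 0.15, adjusted p = 3.45e-05) and Sdhaf3 (-1.19 ± 0.21, adjusted p = 0.000916) fell. Sdhaf2, which helps attach flavin to Sdha, was at -0.14 ± 0.12 (adjusted p = 0.327) and Sdhaf4 at -0.35 ± 0.16 (adjusted p = 0.0711).

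D2hgdh, which oxidises D-2-hydroxyglutarate, was at 0.02 ± 0.21 (adjusted p = 0.991). Of 12 tested genes that bring carbon into the cycle or take it out, 7 fell and 1 was called higher. That gene, Acss1, reached the minimum level for testing through del alone, so the filter set its direction. Got2, the mitochondrial aspartate aminotransferase, was at 217, 281 and 310.2 CPM in fl and 102, 113 and 111 CPM in del (-1.31 ± 0.16, adjusted p = 0.000111). Glud1, the glutamate dehydrogenase, was at -0.02 ± 0.16 (adjusted p = 0.94).

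**Figure D5:**
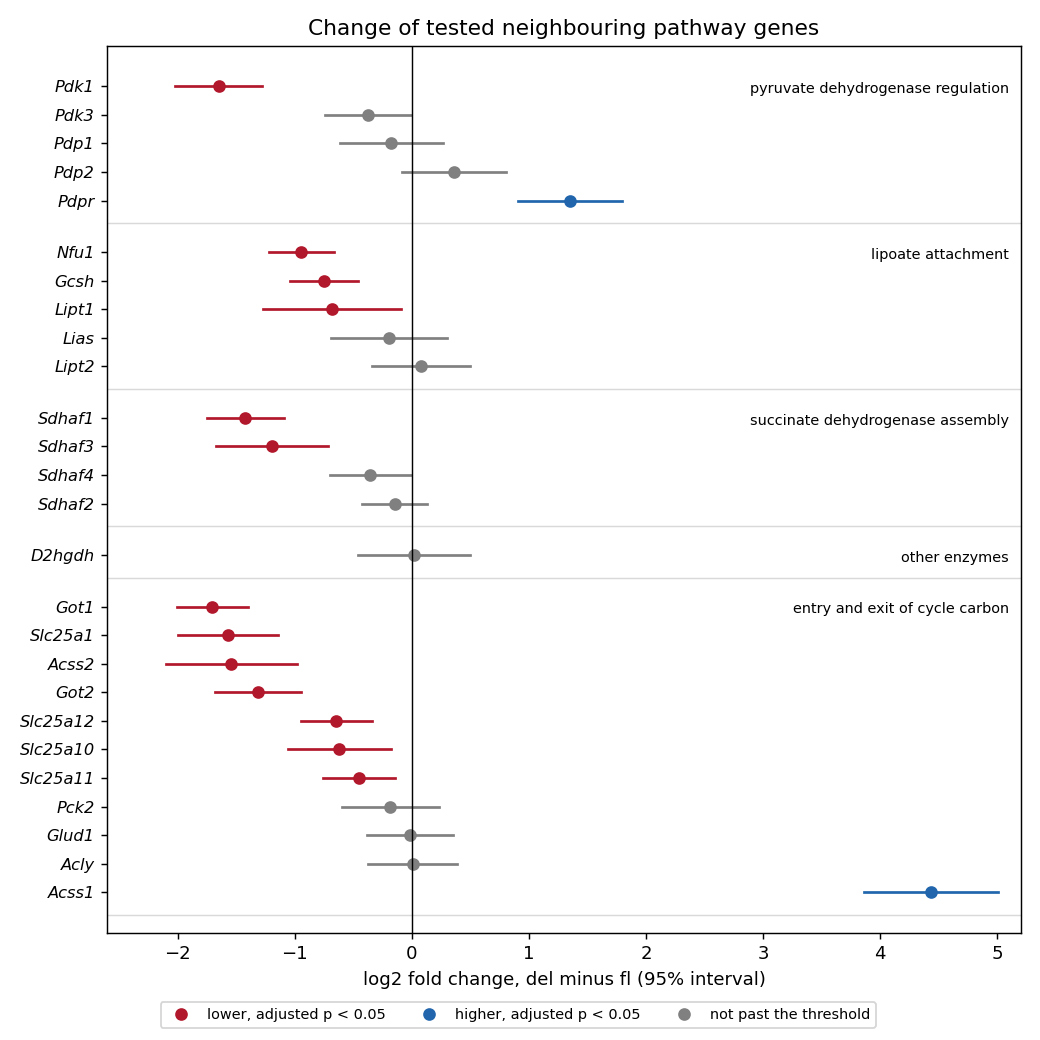
Log2 fold change (x axis, del minus fl; point with 95% interval) of genes that regulate, equip or feed the cycle, by list and coloured by call; 3 of the 29 tested are not drawn. Pdk1, Sdhaf1, Got1 and Got2 lie left of -1, Glud1 and Acly lie near 0, and Pdpr and Acss1 are the 2 genes called higher. Acss1 was tested through del alone, so the filter set its direction.

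The microRNAs of the deleted cluster are shown with their seeds, bases 2 to 8 of the mature strand, in capitals, because a transcript paired to a seed is a possible direct target. They fall into 4 seed families and lie on chromosome 14 of GRCm38.p6, plus strand (RefSeq).
miR-17-5p: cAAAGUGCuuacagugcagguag
miR-20a-5p: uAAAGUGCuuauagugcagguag
miR-18a-5p: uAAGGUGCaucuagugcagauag
miR-19a-3p: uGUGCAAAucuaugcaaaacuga
miR-19b-3p: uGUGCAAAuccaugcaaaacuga
miR-92a-3p: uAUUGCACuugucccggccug

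A match of 7 bases to any of the 4 seeds was found in the longest annotated 3' untranslated region of 7 of the 28 tested genes (25%), against 33.7% of 9721 tested genes with such a region. The regions of the 28 genes were shorter, with a median of 725 nucleotides against 1185. The 7 matches are shown in the sense of the transcript with the match in capitals, from the GENCODE M21 transcripts on GRCm38.
Sdhd, miR-17-5p and miR-20a-5p, chr9:50597068-50597074, minus strand: cctgggtgcaGCACTTTgattgtgtgcc
Pdhx, miR-17-5p and miR-20a-5p, chr2:103040322-103040328, minus strand: ggtatggagatGCACTTTtaaaataattt
Pdha1, miR-18a-5p, chrX:160122593-160122599, minus strand: cgtagtcggagGCACCTTaggtcttcctt
Cs, miR-19a-3p and miR-19b-3p, chr10:128362232-128362238, plus strand: tagcagccccaTTTGCACagattttcagt
Suclg2, miR-19a-3p and miR-19b-3p, chr6:95473626-95473632, minus strand: tgactaactagTTTGCACagttaaataga
Ogdh, miR-92a-3p, chr11:6355979-6355985, plus strand: ccatgcccccaGTGCAATcctccagggta
Mdh1, miR-92a-3p, chr11:21556803-21556809, minus strand: tgcattactcaGTGCAATaaataaccata

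Of the 7 genes with a match, Ogdh rose (0.51) and the others fell: Sdhd (-0.76), Pdhx (-0.998), Pdha1 (-1.31), Cs (-0.41), Suclg2 (-0.62) and Mdh1 (-1.01). Since 24 of all 28 genes tested fell, these directions are not read as a result about the matches. A match is a description of letters and not a shown target site, and whether the annotated region is the expressed one was not tested.

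Promoter windows of 300 bases, from 250 before to 50 after an annotated start, were at hand for 27 of the 30 genes (RefSeq, GRCm38.p6). They were searched on both strands for short motifs of factors known to act on growth or mitochondrial genes, and shares are of genes with a match in any of their windows. The MYC E-box CACGTG was in 2 of 27 (7.41%, against 12.4% of tested genes), those of Ogdh and Pcx. The ETS motif CCGGAAG was in 6 (22.2% against 22.7%): Dlst, Idh3b, Idh3g, Mpc1, Sdhb and Sdhd. The ERR half-site AAGGTCA was in Ogdh and Sdhd (7.41% against 3.78%), and the palindromic NRF1 motif in 0 (against 2.61%). The GC box GGGCGG was in 20 (74.1% against 69.9%), the CCAAT box CCAAT in 17 (63% against 43.5%) and TATAAA in 0 (against 8.34%). Over all 32851 windows, matches were in 7.15% for CACGTG, 8.86% for CCGGAAG, 4.72% for AAGGTCA, 0.971% for NRF1, 35.7% for GGGCGG, 37.4% for CCAAT and 13.6% for TATAAA.

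A window is printed for Ogdh, the gene that rose, and for Mpc1 and Sdhd, which fell. Ogdh has several windows, and the printed one is the only one with both an E-box and an ERR half-site. The window at its annotated gene start, chr11:6291347-6291646, holds no E-box, ETS motif or ERR half-site. The other window of Mpc1, not printed, holds none of them either. Capitals mark the E-box, the ETS motif and the ERR half-site on either strand, and no match overlaps another.
Ogdh, chr11:6291920-6292219, plus strand: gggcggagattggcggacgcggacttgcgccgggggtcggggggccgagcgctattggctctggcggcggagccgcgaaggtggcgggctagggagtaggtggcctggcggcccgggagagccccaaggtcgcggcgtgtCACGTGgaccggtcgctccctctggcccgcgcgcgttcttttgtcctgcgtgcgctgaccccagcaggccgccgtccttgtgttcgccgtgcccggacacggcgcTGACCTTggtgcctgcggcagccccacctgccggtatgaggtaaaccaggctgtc
Mpc1, chr17:8283537-8283836, plus strand: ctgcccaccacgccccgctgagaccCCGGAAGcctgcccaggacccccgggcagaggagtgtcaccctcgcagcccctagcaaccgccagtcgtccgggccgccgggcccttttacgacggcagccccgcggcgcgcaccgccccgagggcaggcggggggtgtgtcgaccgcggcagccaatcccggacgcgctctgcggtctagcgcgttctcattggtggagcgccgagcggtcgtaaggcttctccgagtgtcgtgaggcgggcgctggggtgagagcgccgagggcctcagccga
Sdhd, chr9:50603800-50604099, minus strand: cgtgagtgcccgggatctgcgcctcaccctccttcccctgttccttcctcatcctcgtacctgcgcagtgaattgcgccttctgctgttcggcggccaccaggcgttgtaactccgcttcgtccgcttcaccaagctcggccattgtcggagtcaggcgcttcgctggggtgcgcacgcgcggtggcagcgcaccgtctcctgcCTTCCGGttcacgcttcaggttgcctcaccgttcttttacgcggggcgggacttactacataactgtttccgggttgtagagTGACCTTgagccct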

How the data were processed

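The deposited table holds raw read counts per gene for 6 libraries of poly(A)-primed, strand-specific 3' RNA-seq, per the labels' protocols. STAR, HTSeq and mm10 are named in the submitters' processing notes, without versions or settings. NCBI gene numbers were paired with symbols through the RefSeq table of GRCm38.p6 (23969 matched, 83 not; the other 833 rows carry accessions). Genes without a symbol held 0.207% to 1.04% of a library's counts.

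From the counts, edgeR 4.0.16 (R 4.3.3) kept genes by filterByExpr, scaled libraries by TMM and ran the robust quasi-likelihood test on all 10260 genes with group as the only term, with Benjamini-Hochberg adjustment. All adjusted p-values of genes come from it unless another setting is named. Standard errors were derived from its F statistic. CPM used the TMM-scaled totals. Ratios added 0.5 to each count. The script was tested on simulated counts in which few genes changed, while 65.1% of genes passed in these data. That test therefore checks the running of the script and not its error rates here. Alternatives were DESeq2 1.42.0, other scaling, filters (none, or 10 CPM in 3 libraries), thinning to 2121796 counts, length and GC offsets (GENCODE M21 transcripts), a replicate block, and each library left out.

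All 30 genes are reported; of related genes, up to 3 of the highest level in each list and that of smallest adjusted p were to be named, and others were chosen after their values were seen. The genes and lists were chosen with earlier results of these data known. Some related and marker genes that enter the counts and sums are not reported here by name.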

Additional observations from a re-analysis of the deposited data

How the results depend on the processing

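The count of genes called lower, 24 of 28, was 21 to 24 in 14 of 16 alternatives and 14 with length and GC offsets, with or without the replicate block. The count called higher was 0 to 1 when a library was left out. Of the related genes, 4 and not 2 were called higher with the offsets, again with or without the block. Mdh2 changed sign with them (0.0181, and 0.0169 with the block), as did Slc25a11 (0.17 in both). Upper-quartile factors moved the median log2 fold change of all genes from -0.00 to -0.13 and that of the 28 genes to -0.74; no scaling turned the sign of any of them. Deviations of same-numbered libraries from their group means had correlations of 0.0825, -0.0386 and -0.02. Those of unlike-numbered libraries ran from -0.145 to 0.167. Whether the numbers pair the libraries cannot be told from these values. With the replicate block alone, 22 genes were called lower and 1 higher; of all genes, 3215 were lower and 3295 higher. Ratio differences moved by 1 SD or more in 8 of 14 pairs with the offsets, and by less in all 134 values under other alternatives. Most of those 134 could not have moved that far. The replicate block leaves a mean difference as it is, and leaving out a library shifts it by less than 1 SD. No stability is therefore read from the 134 values. At these depths, Pcx, Me1 and Me3 allow no statement on change.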

Other observations

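The 2 acetyl-CoA synthetases, which make acetyl-CoA from acetate, moved in opposite directions, a pair singled out after its values were seen. Acss1, the mitochondrial enzyme, was at 0.801, 0.670 and 1.46 CPM in fl and at 21.0, 19.4 and 21.9 CPM in del (4.44 ± 0.26 on the log2 scale, edgeR adjusted p = 1.28e-06). All its fl levels lay under the minimum for testing (1.94 CPM), so Acss1 was tested through del alone. The filter thus set its direction, and its rise is read as a description of levels. Acss2, the enzyme of cytosol and nucleus, was at 9.62, 14.3 and 10.5 CPM in fl and 3.94, 3.78 and 4.05 CPM in del (-1.54 ± 0.25, adjusted p = 0.00051). Neither gene's groups overlapped. Slc25a1, the citrate carrier of the inner membrane, was at 69.6, 70.6 and 72.3 CPM in fl and 30.8, 22.7 and 17.8 CPM in del (-1.57 ± 0.19, adjusted p = 9.68e-05). Acly, which splits citrate in the cytosol, stood at a mean of 88.2 ± 15.6 CPM in fl against 88.6 ± 9.81 CPM in del (SD, n = 3; edgeR adjusted p = 0.968). Got1, the cytosolic aspartate aminotransferase, was at 123, 137 and 142 CPM in fl and 43.1, 38.8 and 41.3 CPM in del (-1.70 ± 0.14, adjusted p = 8.5e-06). The marker sums that differ between the groups move with these values too, and their part was not tested.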
